A study of Mus musculus with 22 samples.

Results

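The hippocampus of old wild type (WT) mice, 5 animals of 40, 39, 39, 35 and 32 weeks, was set against that of young WT mice, 4 animals of 5, 5, 6 and 6 weeks. All 9 carry the genotype label WT, without the tau transgene of the rTg4510 animals in the same series, and the strain label Fvb/B6, a mixed background; the labels used here do not give their sex. They are 9 of the 22 animals of the series, and their libraries held 10525 of its 27198 kept cell barcodes, 4723 from old and 5802 from young animals. Single-cell suspensions had been run through Drop-seq, in which a cell and a bead with a barcode share a droplet, so that transcripts can be counted cell by cell. Members were the barcodes of these 9 animals with 300 or more counts in the deposited table. Counts were summed per animal, over all its cells and within cell classes, so that the animal was the replicate. Classes were named from marker genes of clusters, and a name such as oligodendrocytes stands for oligodendrocyte-like cells throughout. Each animal has its own label number, but nothing states how the libraries were grouped for preparation.

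Between the young and the old age of these mice the hippocampus passes from the juvenile brain to the mature adult one. Oligodendrocytes wrap axons in myelin, a membrane rich in cholesterol, which the brain makes for itself because little crosses from the blood. Myelination peaks early in life, and new oligodendrocytes then arise ever more slowly from precursors that pass through a short-lived stage marked by Gpr17, Enpp6 and Bmp4. Microglia, astrocytes and vessel cells of ageing brains are known for raised immune genes, among them those of antigen presentation and complement.

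Library totals were 780831 to 2342345 counts in old WT and 1547650 to 5739930 counts in young WT, and the median count of a kept barcode was 817 to 1555 in old WT and 814 to 1979 in young WT. Of the kept barcodes, 8883 fell into 11 named classes and 1642, 15.6%, into unnamed clusters; 2 barcodes occurred in more than 1 library. Prox1 and Neurod6, genes of dentate granule cells and hippocampal pyramidal neurons, were counted in every library: Prox1 at 18.8 to 46.99 CPM (counts scaled to a common total per animal) in old WT and 24.2 to 56.3 CPM in young WT. An unnamed cluster of low-count barcodes (median 620 counts), led by transcripts of neurons and astrocytes together such as Kif5a, Mt3, Camk2a and Sepw1, stood apart. Of the 10 astrocyte markers, 8 stood at least 2-fold higher in it than in the other clusters, and leaving it out of the astrocyte class was a choice made after its genes were seen; values with it in the class are given where they differ. It held 10.2, 32.3, 2.61, 22.2 and 22.1% in old WT, against 7.62, 1.63, 3.19 and 2.19% in young WT, 809 against 189 barcodes, 4 of the 5 old animals above every young one (exact permutation test over animals, p = 0.0714). Choroid plexus cells came mostly from a single old animal, at 5% of its barcodes, and a single young one, at 11.4% of its barcodes.

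Oligodendrocytes were the 1 class in which genes passed the test: 127 of 4823 genes tested differed between old and young WT, 2.63% of them, at an adjusted p under 0.05. Of these, 70 were higher in old WT (1.45% of genes tested) and 57 were lower (1.18%). Every other comparison called 0 genes (0% of those tested) by edgeR's quasi-likelihood test with Benjamini-Hochberg adjustment; with the low-count cluster counted among them, astrocytes gave 6 calls of 4737 genes, 5 higher and 1 lower. There, the genes at an unadjusted p under 0.05 numbered 490 of 12043 over the whole hippocampus, 296 of 8459 in excitatory neurons, 86 of 3591 in interneurons and 217 of 3240 in astrocytes. They numbered 120 of 1493 in microglia, 102 of 2086 in oligodendrocyte precursors, 152 of 3288 in endothelial cells and 68 of 892 in mural cells. DESeq2 on the same sums called 131 genes in oligodendrocytes, 26 over the whole hippocampus (23 higher and 3 lower), 2 in excitatory neurons, 1 in astrocytes, 1 in microglia and 0 in the other classes. Classes with calls and without are not thereby shown to differ in their response to age; that difference was not tested. Interneurons were fitted with 4 old animals and mural cells with 3, since an animal needed 20 cells of a class to enter.

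The oligodendrocyte class held 275, 79, 139, 178 and 63 cells in old WT, against 46, 104, 332 and 342 cells in young WT. Median counts per oligodendrocyte were 1144, 1756, 1535, 1426 and 1275 in old WT, against 1907, 2265, 2265 and 1766 in young WT, every young library above every old one. The class's 10 own markers, among them Mbp and Mog, summed to 86973, 100010, 85602, 67922 and 126354 CPM in old WT, against 137540, 146519, 130330 and 130162 CPM in young WT, again without overlap. Marker transcripts of neurons and astrocytes summed higher in most old animals, while the 9 markers of oligodendrocyte precursors summed lower in each. These 9 markers summed to 1258, 799, 872, 1124 and 1335 CPM in old WT, against 1488, 1372, 1618 and 1474 CPM in young WT. The 11 excitatory neuron markers summed to 1643, 1874, 1278, 2148 and 969.8 CPM in old WT oligodendrocytes, against 510.2, 712, 739 and 1073 CPM in young WT ones, with the 2 groups overlapping in 1 old animal; no marker of the list was at 0 in either group. The 10 astrocyte markers summed to 1974, 1717, 855, 2244 and 615 CPM in old WT, against 680.2, 768, 867 and 682 CPM in young WT. The part of depth and of these transcripts in the results below was not tested as a cause; the main results are given also from a fit on cells that hold at most 1 excitatory marker count, which was added after the data had been seen.

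Among the 70 genes higher in old WT oligodendrocytes, the largest rises were in Rnase4, Il33, Hopx and Abca8a. Il33, an alarmin of the interleukin-1 family that is held in the nucleus (chr19:29925114-29960718), stood at 602, 505, 1089.8, 617 and 323 CPM in old WT, against 21.3, 63.2, 128 and 106 CPM in young WT. All old animals lay above all young ones, and the log2 change was 2.72 ± 0.33 (old over young, ± SE), adjusted p = 3.65e-05. Rnase4, a secreted ribonuclease (chr14:51091077-51106151), stood at 139.8, 105, 235, 91.8 and 125 CPM in old WT, against 0, 10.5, 11.04 and 6.91 CPM in young WT. Rnase4 had a log2 change of 3.88 ± 0.41, adjusted p = 5.07e-06, also without overlap. Its highest mean level was in microglia, whose 10 markers summed to 308, 203, 88.03, 158 and 188 CPM in old WT oligodendrocytes, against 53.1, 59.6, 138 and 67.7 CPM in young WT ones, 4 of the 5 old animals above every young one. The Rnase4 count in young WT oligodendrocytes was low. The gene overlaps Ang in the annotation, and whether reads of this neighbour were counted with it could not be checked. Hopx, a small homeodomain protein that does not bind DNA (chr5:77086988-77115121), stood at 165, 485, 566, 477 and 156 CPM in old WT, against 31.9, 14.03, 97.2 and 49.7 CPM in young WT. Its groups did not overlap either, with a log2 change of 2.66 ± 0.45, adjusted p = 0.00293. Abca8a, a transporter of the ATP-binding cassette family (chr11:110025634-110095978), stood at 257, 124, 109, 95.5 and 177 CPM in old WT, against 53.1, 31.6, 19.9 and 20.7 CPM in young WT. Abca8a had a log2 change of 2.53 ± 0.37, adjusted p = 0.000167. For Il33, Rnase4, Hopx and Abca8a every one of the 21 alternative analyses kept the call.

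Apoe, the main lipid carrier of the brain, stood at 5058, 3990.4, 3819, 6033 and 5141 CPM in old WT, against 1679, 1435, 1567 and 2142 CPM in young WT, with no overlap. The means were 4808 ± 911 CPM in old WT and 1706 ± 307 CPM in young WT (SD, n = 5 and 4), and the log2 change was 1.42 ± 0.20, adjusted p = 0.000113. S100b, a calcium-binding protein of astrocytes and of the oligodendrocyte lineage, stood at 670.4, 963, 700, 595 and 636 CPM in old WT, against 170.1, 151, 189.9 and 242 CPM in young WT. S100b had a log2 change of 1.82 ± 0.23, adjusted p = 3.97e-05, again with no overlap. Gstm1, a glutathione transferase, rose by 2.20 ± 0.25, adjusted p = 1.01e-05, and Cyp2d22, a cytochrome P450, by 2.50 ± 0.34, adjusted p = 8.16e-05. Clu, Serpina3n and Ctsz, a secreted chaperone, a protease inhibitor and a lysosomal protease known for rises in reactive glia, rose by 1.38 ± 0.33, 1.36 ± 0.33 and 1.19 ± 0.29 on the log2 scale (adjusted p = 0.0268, 0.0234 and 0.0234). In cells with at most 1 excitatory marker count, the log2 change was 2.64 (adjusted p = 1.46e-05) for Il33, 4.18 (adjusted p = 4.08e-05) for Rnase4, 2.57 (adjusted p = 0.000792) for Hopx and 1.38 (adjusted p = 5.67e-05) for Apoe. There Clu changed by 1.11 (adjusted p = 0.104), Serpina3n by 1.27 (adjusted p = 0.122) and Ctsz by 1.34 (adjusted p = 0.112), and these 3 did not pass. That fit chose cells by excitatory markers alone, not by astrocyte markers. Apoe, Hopx, Gstm1, Cyp2d22 and Clu had their highest mean level in astrocytes. Apoe averaged 28412 CPM in astrocytes and 3429 CPM in oligodendrocytes. The part of astrocyte transcripts in these values was not tested.

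**Figure D1:**
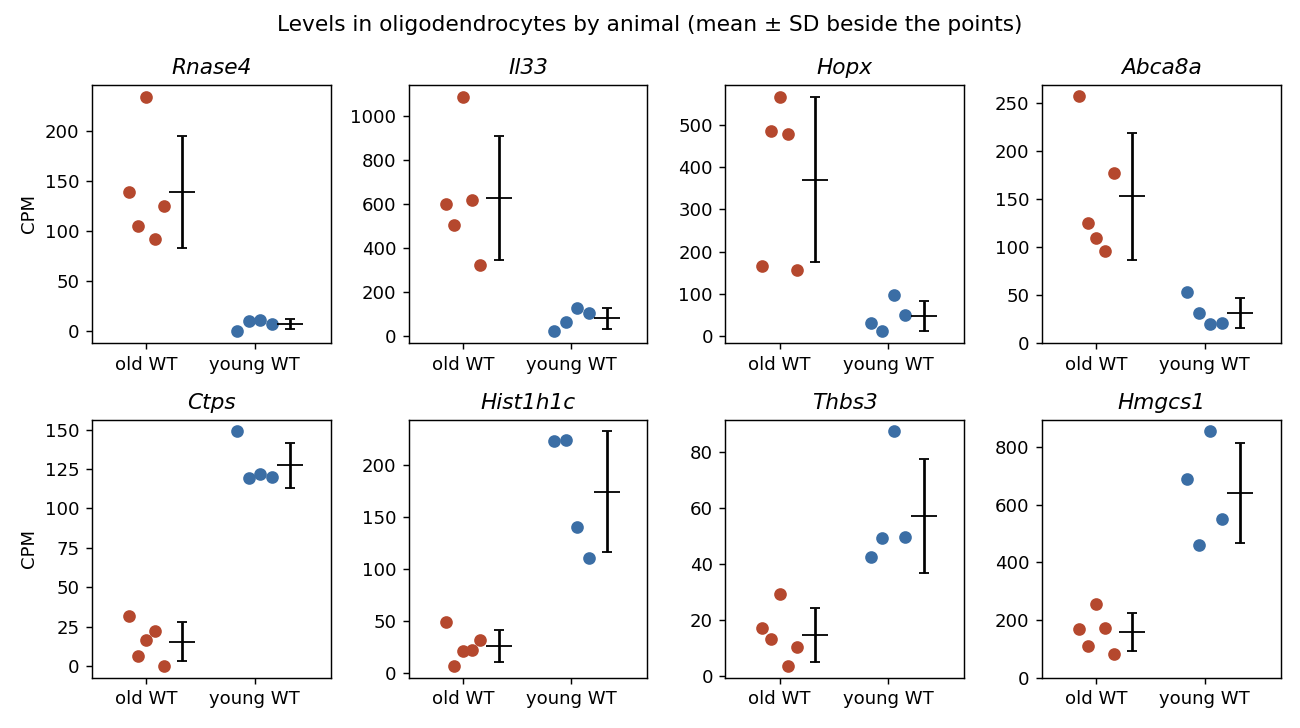
Levels in oligodendrocytes of each animal, in CPM, for 8 genes that passed the test, with old WT left of young WT; points are animals, and the bars beside them are the mean ± SD. In each of the 8 panels every old animal lies on 1 side of every young one.

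Of a list of 25 genes of mature oligodendrocytes, 21 were tested; 7 rose, 1 fell and 13 did not pass. The 7 were Il33, S100b, Hopx, Anxa5 (a phospholipid-binding annexin), Pmp22 (a membrane protein best known from peripheral myelin), Serpina3n and Sepp1 (the selenium carrier selenoprotein P). Among the cell classes, Il33 and Pmp22 had their highest mean level in oligodendrocytes. Hopx and Serpina3n had it in astrocytes, S100b in oligodendrocyte precursors, and Anxa5 and Sepp1 in endothelial cells. Anxa5 rose by 1.98 ± 0.37, adjusted p = 0.00293, Pmp22 by 1.51 ± 0.31, adjusted p = 0.00558 and Sepp1 by 1.09 ± 0.23, adjusted p = 0.00685. Opalin, a membrane protein of central myelin, was the 1 member that fell, by 1.02 ± 0.23 on the log2 scale (adjusted p = 0.014). The list's median log2 change was 0.58, beside -0.0040 over all 4823 genes, and its summed level was 36379 to 49470.2 CPM in old WT, against 29703 to 38326 CPM in young WT, with overlap. The median of the tested members was positive in every other class as well, between 0.21 in mural cells and 0.88 in excitatory neurons, where 0 members passed. Neat1, a nuclear long noncoding RNA of the list, had a log2 change of 1.09 ± 0.33, adjusted p = 0.0809, and did not pass. In cells with at most 1 excitatory marker count, 20 members were tested, of which 5 rose and 1 fell, with a median log2 change of 0.50. The lists here were drawn up with earlier results of these data known, so their counts describe the members and are no independent evidence of a direction.

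Of 18 myelin genes, all tested, 7 fell, 0 rose and 11 did not pass, with a median log2 change of -0.65. Mal, a proteolipid that sorts membrane to the myelin sheath (chr2:127633226-127656695), stood at 4673, 3512, 3789, 3268 and 2930.2 CPM in old WT, against 12648, 10543, 11745 and 10036 CPM in young WT. Each young animal held more than 2 times the level of any old one, and the log2 change was -1.70 ± 0.19, adjusted p = 7.30e-06. Tspan2, a tetraspanin of the sheath, stood at 1389, 1396, 1429, 1186 and 1147 CPM in old WT, against 3305, 2481, 3805 and 3212 CPM in young WT. Tspan2 had a log2 change of -1.36 ± 0.19, adjusted p = 8.59e-05. Cldn11, which seals the layers of central myelin, stood at 2893, 3912, 4347, 3973 and 4234 CPM in old WT, against 8046, 7403, 9436 and 8383 CPM in young WT. Cldn11 had a log2 change of -1.18 ± 0.18, adjusted p = 0.000369; neither gene's groups overlapped. Gamt, an enzyme of creatine synthesis, fell by 1.30 ± 0.25, Mog, a surface protein of the outer sheath, by 0.95 ± 0.21, and Ugt8a, which makes galactosylceramide, by 0.76 ± 0.19 on the log2 scale (adjusted p = 0.00332, 0.0127 and 0.0311). Other myelin genes did not pass, among them Mag, an adhesion protein facing the axon, at -0.47 ± 0.19, adjusted p = 0.236, and Mbp, the basic protein that compacts the sheath, at 0.16 ± 0.21, adjusted p = 0.842. The 18 genes summed to 75358 to 133977 CPM in old WT, against 147962 to 164749 CPM in young WT, so the 5 old values lay under the 4 young ones. In cells with at most 1 excitatory marker count 6 of the 18 fell and 0 rose, at a median of -0.57.

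Enzymes of cholesterol synthesis were among the genes that fell in old WT oligodendrocytes. Of a list of 23 genes of the pathway, 13 were tested; 4 fell, 0 rose, and all 13 had a negative log2 change, with a median of -0.96. Of the 13, 11 lay below an unadjusted p of 0.05, as did 653 of the 4823 genes tested (13.5%). The median log2 change over all 4823 was -0.0040. Hmgcs1, the synthase that starts the mevalonate pathway (chr13:119690379-119708260), stood at 168, 111, 256, 173 and 83.4 CPM in old WT, against 691, 459.6, 857 and 552 CPM in young WT. Hmgcs1 had a log2 change of -2.03 ± 0.26, adjusted p = 3.97e-05. Cyp51, the lanosterol demethylase (chr5:4081145-4104746), stood at 71.3, 91.7, 159, 73.4 and 52.1 CPM in old WT, against 383, 207, 367 and 320.4 CPM in young WT. Cyp51 had a log2 change of -1.86 ± 0.28, adjusted p = 0.000237. For both genes every young animal lay above every old one. Sqle, squalene epoxidase, at -1.18 ± 0.35, adjusted p = 0.0714, did not pass. The list summed to 845 to 1366 CPM in old WT, against 1688 to 2848 CPM in young WT. In cells with at most 1 excitatory marker count, Hmgcs1 changed by -1.85 (adjusted p = 0.000226) and Cyp51 by -1.76 (adjusted p = 0.00114); 9 of the list could be tested there, all with a negative change.

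Promoters of both genes are shown because genes of this pathway are textbook targets of the sterol-sensing factor SREBP2, whose sites often stand beside CCAAT boxes. The sequences are from RefSeq (GRCm38.p6, the assembly of mm10), 250 bases before to 50 after a start, 5′ to 3′ on the gene's strand; Hmgcs1 lies at chr13:119690101-119690400 on the plus strand and Cyp51 at chr5:4104648-4104947 on the minus strand. Capitals mark each match, on either strand, of the sterol element CACCCCAC and of the CCAAT box, read as ATTGG where it lies on the opposite strand.
Hmgcs1: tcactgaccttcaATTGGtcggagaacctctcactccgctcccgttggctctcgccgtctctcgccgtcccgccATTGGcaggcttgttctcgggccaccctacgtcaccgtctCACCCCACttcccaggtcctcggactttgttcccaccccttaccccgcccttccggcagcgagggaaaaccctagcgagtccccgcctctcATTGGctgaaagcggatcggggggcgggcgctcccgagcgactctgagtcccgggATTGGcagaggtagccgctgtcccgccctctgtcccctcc
Cyp51: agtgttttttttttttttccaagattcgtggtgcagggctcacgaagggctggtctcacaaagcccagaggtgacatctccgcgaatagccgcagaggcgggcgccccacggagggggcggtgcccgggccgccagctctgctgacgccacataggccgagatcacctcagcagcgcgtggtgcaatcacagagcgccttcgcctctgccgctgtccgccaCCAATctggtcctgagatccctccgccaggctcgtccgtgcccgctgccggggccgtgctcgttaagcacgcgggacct
Hmgcs1 held 1 match of the sterol element and 4 of the CCAAT box, and Cyp51 held 0 and 1. Of all 32851 promoters in the table, 942 (2.87%) held the sterol element and 12289 (37.4%) the CCAAT box; the motifs do not overlap each other. Of the 13 cholesterol genes tested, 7 matched the table, of which 7 held a CCAAT box and 1 the sterol element in at least 1 promoter. Dhcr7 and Pmvk had more than 1 promoter, some of them with 0 CCAAT boxes. These are counts of genes, and the percentages above are of single promoters, so they are not alike. A match describes letters in this window and neither shows a site in use nor a cause.

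Outside these lists, the largest falls were in Ctps, Hist1h1c and Thbs3. Ctps, which makes the CTP used for nucleotides and phospholipids (chr4:120539868-120570276), stood at 31.4, 6.55, 16.8, 22.03 and 0 CPM in old WT, against 149, 119, 121 and 120.1 CPM in young WT. Ctps had a log2 change of -2.76 ± 0.36, adjusted p = 4.80e-05. Hist1h1c, a linker histone (chr13:23738808-23740367), stood at 48.5, 6.55, 20.96, 22.03 and 31.3 CPM in old WT, against 223, 225, 140.2 and 110.5 CPM in young WT. Hist1h1c had a log2 change of -2.64 ± 0.37, adjusted p = 8.59e-05. Thbs3, a thrombospondin of the extracellular matrix (chr3:89215180-89226837), stood at 17.1, 13.1, 29.3, 3.67 and 10.4 CPM in old WT, against 42.5, 49.1, 87.2 and 49.7 CPM in young WT. Thbs3 had a log2 change of -2.06 ± 0.42, adjusted p = 0.0066. Every old animal lay under every young one for each of the 3. Marcksl1, an actin and membrane regulator of young cells, fell by 1.27 ± 0.27 (adjusted p = 0.00784), and Mdm2, a p53 target that curbs p53, by 1.28 ± 0.32 (adjusted p = 0.0278) on the log2 scale. Genes of newly formed oligodendrocytes did not pass within the class: of the 8 tested 0 rose and 0 fell, with a median log2 change of 0.094. The unnamed cluster led by Gpr17, Enpp6 and Bmp4, described below, lies outside this class. Its cells do not enter these values, which therefore cannot show a change in such cells. Of 43 cytosolic ribosomal protein genes tested, 2 rose, Rps19 by 1.20 ± 0.23, adjusted p = 0.00325 and Rpl37 by 1.18 ± 0.30, adjusted p = 0.0279; all 43 had a positive change, with a median of 0.56. Of 67 nuclear-encoded genes of oxidative phosphorylation 0 passed, 58 were positive and the median was 0.21. The median over all 4823 genes tested in the class was -0.0040.

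**Figure D2:**
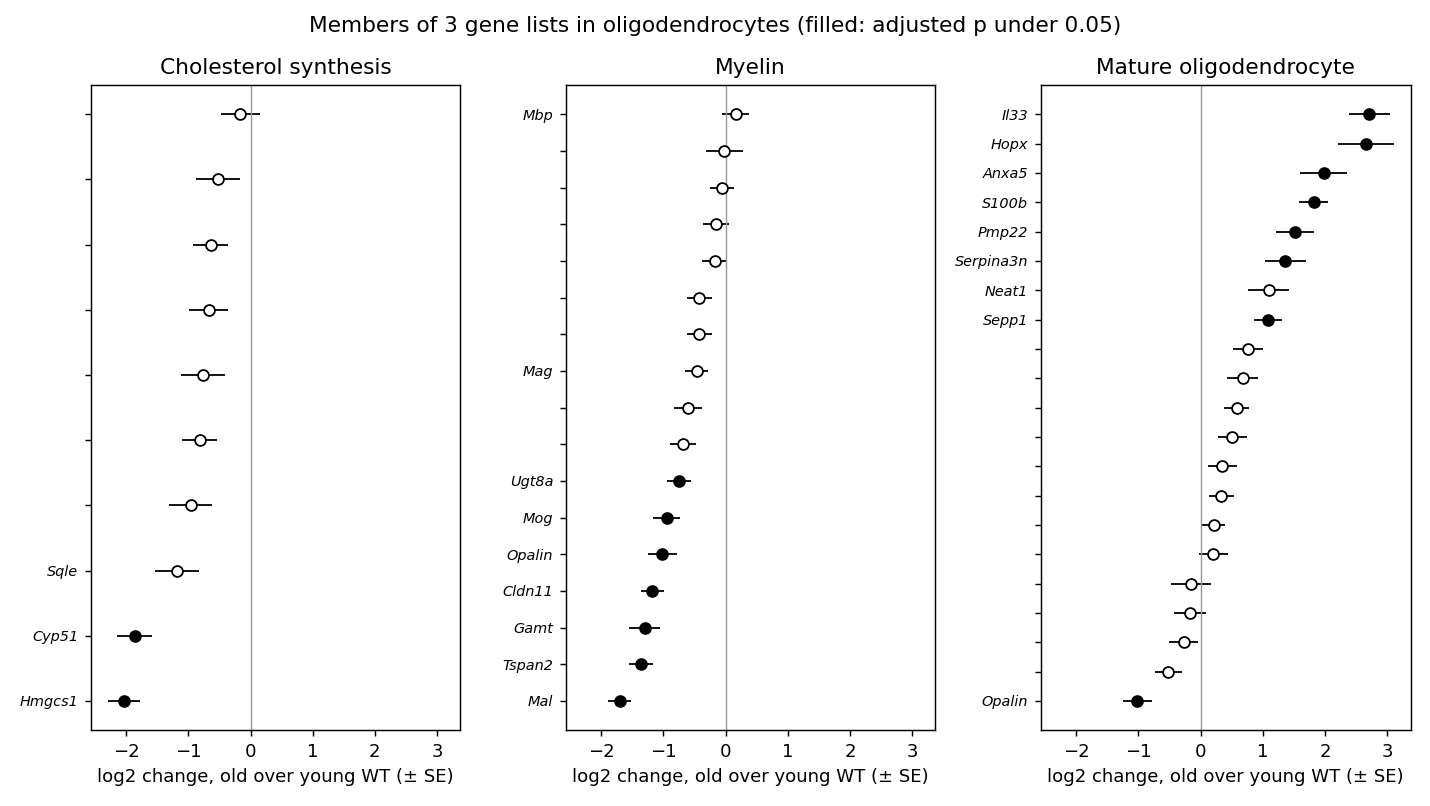
Log2 change, old over young WT, in oligodendrocytes for tested genes of 3 lists; points are genes with bars of ± SE, filled where they passed the test, and the genes described in the text are named. All cholesterol genes shown lie below 0 and most mature oligodendrocyte genes above it.

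Transcripts typical of neurons were also among the rises. Of 6 excitatory neuron markers tested 3 rose: Camk2a, a postsynaptic kinase, Nrgn, neurogranin, and Neurod6, a transcription factor of pyramidal neurons. Camk2a stood at 642, 465, 214, 485 and 156 CPM in old WT, against 95.7, 109, 189.9 and 149 CPM in young WT, so that the groups overlapped in 1 old animal, with a log2 change of 1.41 ± 0.32, adjusted p = 0.0144. Nrgn rose by 1.15 ± 0.30, adjusted p = 0.0347, Neurod6 by 1.54 ± 0.40, adjusted p = 0.0353 and Sst, the interneuron peptide somatostatin, by 1.54 ± 0.37, adjusted p = 0.0233. Of the 70 genes higher in old WT oligodendrocytes, 29 (41.4%) had their highest mean level in neurons, 11 (15.7%) in astrocytes and 9 (12.9%) in oligodendrocytes, beside 29.6%, 8.29% and 18.4% of all genes tested. Of the 57 lower genes, 3 (5.26%) had it in neurons, 4 (7.02%) in astrocytes and 33 (57.9%) in oligodendrocytes. In the low-count unnamed cluster, 15 of the 70 (21.4%) stood at least 2-fold above the other cells, beside 1 of the 57 and 1.31% of all genes tested. Among cells with at most 1 excitatory marker count, 42 genes were called of 2571 tested, 21 in each direction; 83 of the 127 calls could be tested there, all 83 with the same sign, and 37 were called again. The excitatory markers themselves were used to choose those cells, so their own values there are not given.

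**Figure D3:**
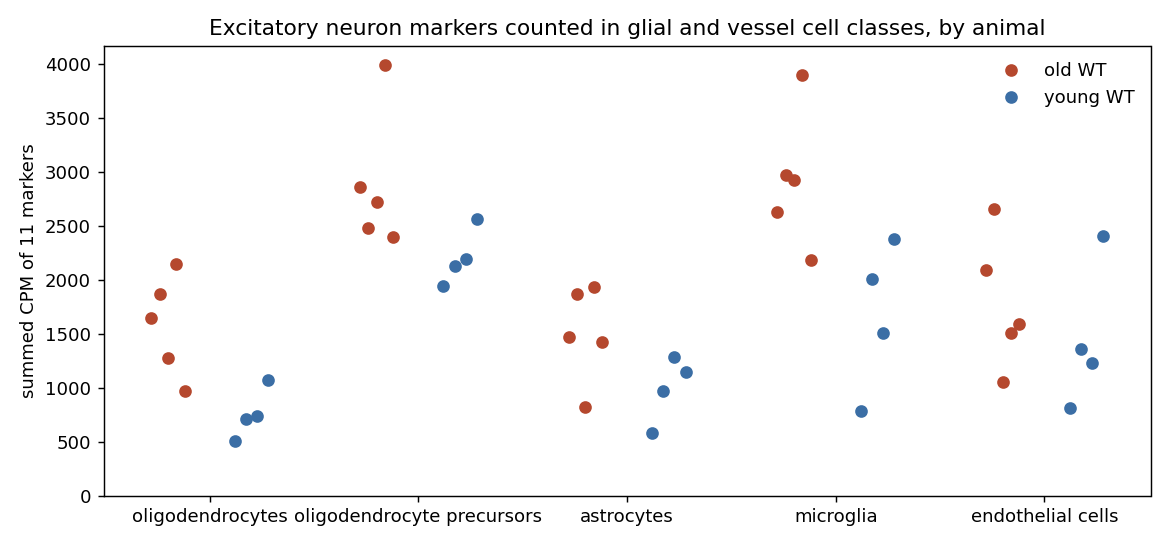
Summed level of the 11 excitatory neuron markers, in CPM, within glial and vessel classes of each animal, with old WT left of young WT. In oligodendrocytes the old animals range from 970 to 2148 and the young ones from 510.2 to 1073.

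Of the 127 calls, 45 of the 70 higher and 50 of the 57 lower genes had groups that did not overlap. The calls were made on the same animals, which favours groups without overlap. The share without overlap over all genes tested was not counted. All 127 kept their sign among the animals with the lower label numbers of their age group (3 old, 2 young). They also kept it among those with the higher ones of their age group (2 old, 2 young). Both parts are made of the animals that gave the calls, so the shared sign is no independent support. Its share over all genes tested was not counted. What the label numbers stand for is not stated. The number of calls was 62 without young WT replicate 3, 65 without old WT replicate 2 and 70 without old WT replicate 4, beside 127 with all animals; without both libraries of lowest median count (young WT replicate 1 and old WT replicate 5) it was 95, 82 of them among the 127. In every alternative that could test them, 35 of the 127 stayed called, among them Rnase4, Il33, Hopx, Abca8a, Apoe, S100b, Mal, Hmgcs1, Cyp51, Cldn11, Tspan2, Ctps and Hist1h1c.

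Old and young rTg4510 mice, 4 animals of 32 to 38 weeks and 3 of 4 to 5 weeks that carry a mutant human tau transgene driven in forebrain neurons, share no animal with the WT comparison. Their oligodendrocytes gave 109 calls of 5940 genes tested (1.84%) in a fit of the 16 WT and rTg4510 animals. All 127 WT calls were tested in them, and 110 had the same direction. The share with the same direction over all genes tested is not given here. Called in both were 46 genes, 36.2% of the WT calls and 42.2% of the rTg4510 calls, all 46 in the same direction. The log2 change in rTg4510 was -2.51 ± 0.27 for Hmgcs1, -1.47 ± 0.21 for Mal, 3.50 ± 0.45 for Abca8a and 1.53 ± 0.22 for Apoe. Il33 changed by 4.12 ± 0.46 there, and S100b by 0.63 ± 0.30. Of the neuron transcripts described above, Camk2a changed there by -0.026 ± 0.43 and Nrgn by -0.18 ± 0.40. Neurod6 changed by -0.91 ± 0.48 and Sst by 0.22 ± 0.41, and none of these neuron transcripts was called in rTg4510. The change with age was not shown to differ between the genotypes for any gene in this class: the age by genotype term called 0 of 5940 genes by edgeR (Il33 adjusted p = 0.921, S100b adjusted p = 0.912), with 307 at an unadjusted p under 0.05, 43 of them among the 127, which were chosen from the same WT animals that enter the term. DESeq2 was not run on that term.

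Outside the named classes, 2 clusters held a smaller share of the barcodes in every old animal than in any young one. An unnamed cluster led by 9630013A20Rik, Gpr17, Enpp6 and Bmp4, with markers of both precursors and oligodendrocytes, took 0.753, 0.200, 0.401, 0.167 and 0.322% in old WT, against 1.68, 1.63, 2.63 and 2.19% in young WT of the kept barcodes, 20 of 4723 barcodes over the old animals and 120 of 5802 over the young ones. A cluster led by the division gene Cenpf and the young-neuron genes Sox11 and Neurod1 held markers of both immature neurons and oligodendrocyte precursors. It took 0.251, 0, 0, 0.0833 and 0.322% in old WT, against 1.58, 0.752, 1.13 and 0.815% in young WT, 8 barcodes in old WT and 59 in young WT. For each in turn, the difference in mean share was -1.66 and -0.937 percentage points, with an exact two-sided permutation p of 0.00794, the smallest that 5 against 4 animals allow. Adjusted over the 11 unnamed clusters the p was 0.0437, and over these and the 11 named classes together it was 0.0873; this test was added after the clusters had been seen. Levels of 2 of its leading genes were also taken over the whole hippocampus, where what part of them came from that cluster was not measured. 9630013A20Rik stood at 13.7, 2.56, 1.95, 2.69 and 19.9 CPM in old WT, against 59.04, 21.7, 81.7 and 50.2 CPM in young WT. 9630013A20Rik had a log2 change of -2.62 ± 0.59, adjusted p = 0.446, not called by edgeR and called by DESeq2 (adjusted p = 0.00609). Gpr17, a receptor of committed precursors, stood at 71.8, 34.6, 24.4, 30.04 and 38.4 CPM in old WT, against 109.7, 95.8, 67.2 and 57.6 CPM in young WT, with overlap and a log2 change of -0.99 ± 0.30, adjusted p = 0.742. In sums over the whole tissue, fewer cells of a type and less RNA per cell cannot be told apart.

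None of the 11 named classes passed the test for a difference in its share of barcodes, which was the exact permutation test over animals, two-sided and adjusted over the 11. Excitatory neurons made up 22.5 ± 6.02% in old WT and 33.2 ± 10.5% in young WT (SD, n = 5 and 4; exact p = 0.103, adjusted p = 0.567), and interneurons 4.27 ± 1.19% in old WT and 6.68 ± 2.44% in young WT (exact p = 0.103, adjusted p = 0.567). Oligodendrocytes made up 17.3, 15.8, 27.9, 14.8 and 6.76% in old WT, against 4.55, 6.52, 20.8 and 21.4% in young WT, with widely overlapping groups (exact p = 0.579, adjusted p = 0.892). Microglia made up 7.57 ± 2.39% in old WT and 5.75 ± 1.75% in young WT (exact p = 0.27), and oligodendrocyte precursors 5.78 ± 1.49% in old WT and 7.38 ± 2.22% in young WT (exact p = 0.222). Beside these shares, the unnamed low-count cluster took a larger part of the barcodes in 4 of the 5 old animals than in any young one. With it counted among astrocytes, their share was 20.1, 40.5, 13.8, 29.3 and 31.8% in old WT, against 23.05, 16.04, 9.38 and 6.64% in young WT, with overlap (exact p = 0.0794, adjusted p = 0.378).

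**Figure D4:**
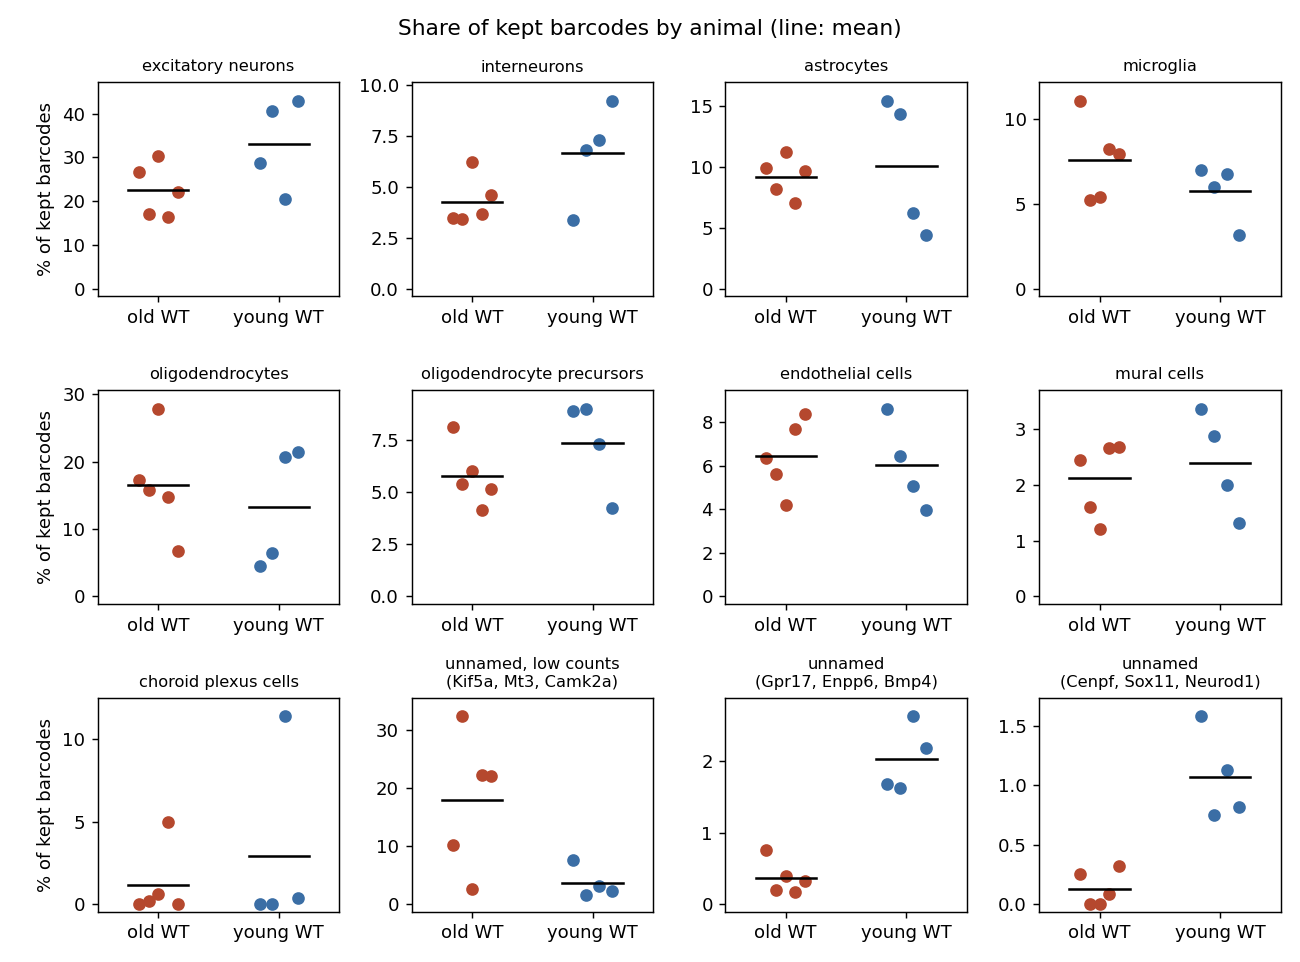
Share of each animal's kept barcodes, in percent, in named classes and in the unnamed clusters described, with old WT left of young WT; points are animals and lines are means. The clusters led by Gpr17 and by Cenpf lie lower in each old animal than in any young one, while the groups overlap in the named classes.

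In endothelial cells 0 genes were called by edgeR, but every tested gene of class I antigen presentation had a positive change there. Of 18 genes 10 were tested, all 10 positive, with a median log2 change of 1.31 beside 0.013 over the 3288 genes, and 7 were at an unadjusted p under 0.05. B2m, the light chain of class I molecules, stood at 2222, 1885, 4773, 7956 and 5244 CPM in old WT, against 1043, 894, 1694 and 1815 CPM in young WT, every old animal above every young one, with a log2 change of 1.72 ± 0.40, adjusted p = 0.355. H2-K1, a class I heavy chain, stood at 1194, 222, 1208, 2584 and 1741 CPM in old WT, against 275, 318, 543 and 431 CPM in young WT, with 1 old animal below all young ones and a log2 change of 1.87 ± 0.45, adjusted p = 0.355. H2-D1, another heavy chain, stood at 2743, 915, 2538, 10584 and 5799 CPM in old WT, against 1285, 1342, 1910.3 and 1852 CPM in young WT, again with overlap, at 1.54 ± 0.52, adjusted p = 0.871. The list summed to 3825 to 24206 CPM in old WT, against 3410.5 to 5252 CPM in young WT. B2m passed in 2 of 20 alternatives and H2-K1 in 4 of 20. H2-D1 in oligodendrocytes had 1.47 ± 0.42, adjusted p = 0.0609. The 10 microglia markers summed to 470.4, 776, 90.6, 347 and 309.7 CPM in old WT endothelial cells, against 329, 87.8, 508 and 171 CPM in young WT ones, without a clear order. Paralogous class I genes can share reads, so the split between them is uncertain.

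Basement membrane genes ran lower in both vessel classes without passing the test. In endothelial cells 7 collagen and basement membrane genes were tested, 6 of them negative, with a median of -0.90 and a sum of 3282 to 5015 CPM in old WT, against 6391 to 9389 CPM in young WT, with no overlap. Sparc, a collagen-binding matrix protein, stood at 2829.8, 2411, 2779, 1725 and 3321 CPM in old WT, against 6644, 5053, 4416 and 4664 CPM in young WT. Sparc had a log2 change of -0.99 ± 0.30, adjusted p = 0.612. Col4a1, a chain of the basement membrane's type IV collagen, stood at 362, 194, 242, 165 and 224 CPM in old WT, against 659, 685, 409 and 379 CPM in young WT. Col4a1 had a log2 change of -1.14 ± 0.31, adjusted p = 0.361. Fn1, fibronectin, had -0.19 ± 0.32, adjusted p = 0.99. In mural cells, which wrap the vessels, 9 of 9 tested genes were negative, with a median of -0.98 and a sum of 2568 to 3674 CPM in old WT, against 4770.1 to 9359 CPM in young WT. There Sparc stood at 1278, 727 and 1355 CPM in the 3 old WT animals fitted, against 3324, 2442, 2422 and 2336 CPM in young WT. Sparc had a log2 change of -1.29 ± 0.43, adjusted p = 0.443. Col4a1 stood at 314, 194 and 285 CPM in old WT, against 1483, 1240.5, 378 and 487 CPM in young WT. Col4a1 had a log2 change of -1.78 ± 0.52, adjusted p = 0.311. In either class, the groups of Sparc and of Col4a1 did not overlap.

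In microglia 0 genes were called by edgeR. Of 22 homeostatic microglia genes tested, 5 were positive, with a median log2 change of -0.20; Cst3, the protease inhibitor cystatin C, had -0.18 ± 0.22, adjusted p = 0.837. Of 13 inflammatory cytokine and chemokine genes, 10 were positive, with a median of 0.43; Nfkbia, an inhibitor of NF-kappa-B, had 1.07 ± 0.40, adjusted p = 0.467. Sepw1, a small selenoprotein, was the 1 gene in any class whose change with age differed between the genotypes (log2 difference -2.45 ± 0.48, adjusted p = 0.0484). Without old rTg4510 replicate 3 the age by genotype term called 63 genes over all classes, without young rTg4510 replicate 1 it called 8, without old WT replicate 3 and without young WT replicate 2 it called 3 each, and without any single one of 9 other animals it called 0. Sepw1 in microglia averaged 187 ± 45.0 CPM in old rTg4510 (n = 4), 535 ± 113 CPM in young rTg4510 (n = 3), 532 ± 191 CPM in old WT (n = 5) and 210.2 ± 87.5 CPM in young WT (n = 4). Excitatory neuron markers in the same class summed to 2635, 2976, 2927, 3901 and 2183 CPM in old WT, against 787, 2008, 1505 and 2377 CPM in young WT, and Sepw1 is among the genes leading the low-count cluster; their part in the result was not tested.

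In astrocytes 0 genes were called by edgeR; DESeq2 called Camk2a. This neuronal kinase stood at 591, 662, 285, 519 and 583 CPM in old WT, against 168, 214, 263 and 256 CPM in young WT in the class. Camk2a had a log2 change of 1.23 ± 0.26, adjusted p = 0.122, while the excitatory markers summed to 1470.1, 1872, 822, 1931 and 1428 CPM in old WT, against 584, 975, 1290.5 and 1148 CPM in young WT. Of 10 cholesterol synthesis genes tested, 9 were negative, with a median of -0.50; Hmgcs1 stood at 359, 225, 296, 259.7 and 288 CPM in old WT, against 422, 401, 364 and 636 CPM in young WT, with no overlap, and a log2 change of -0.65 ± 0.25, adjusted p = 0.59. C4b, the complement component, had 1.66 ± 0.45, adjusted p = 0.349, and Slc1a2, the main glutamate transporter, -0.066 ± 0.21, adjusted p = 0.965. Oligodendrocyte precursors called 0 genes; Apoe stood there at 4601, 7492, 7022, 9268 and 5837 CPM in old WT, against 2882, 2174, 5064 and 3505 CPM in young WT, overlapping in 1 old animal, with a log2 change of 1.00 ± 0.25, adjusted p = 0.332, and passed in the fits of 16 and of 22 animals (adjusted p = 0.0468 and 0.0209). The astrocyte markers in the precursor class summed to 3478, 3223, 2748, 4241 and 2132 CPM in old WT, against 2183, 2011, 2452 and 1912 CPM in young WT, 4 of the 5 old animals above every young one; their part in the Apoe values was not tested.

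In neurons 0 genes were called by edgeR. In excitatory neurons, Csrp1, a LIM protein, had a log2 change of 2.14 ± 0.41, adjusted p = 0.391, and S100b of 1.42 ± 0.30, adjusted p = 0.502; DESeq2 called both (adjusted p = 0.0402 for each). The astrocyte markers in this class summed to 1767, 1872, 1054, 1820.4 and 879.8 CPM in old WT, against 890.4, 946, 1135 and 1018 CPM in young WT, 3 of the 5 old animals above every young one; their part in the S100b values was not tested. Gria2, an AMPA receptor subunit, had 0.068 ± 0.20, adjusted p = 1.0. In interneurons, Slc17a8, the glutamate transporter VGLUT3 of a subset of basket cells, stood at 69.5, 43.1, 0 and 0 CPM in the 4 old WT animals fitted, against 255, 225, 91.5 and 73.8 CPM in young WT, with no overlap and a log2 change of -2.39 ± 0.83, adjusted p = 1.0; a term for lower against higher label numbers within each age group brought its adjusted p to 0.00832. Over the whole hippocampus, Il33 stood at 119.6, 146, 291, 122 and 42.8 CPM in old WT, against 18.1, 18.7, 34.7 and 39.3 CPM in young WT. Il33 had a log2 change of 2.38 ± 0.48, adjusted p = 0.43, and C4b at 23.1, 11.5, 8.78, 30.9 and 20.7 CPM in old WT, against 7.64, 1.93, 2.79 and 2.56 CPM in young WT. C4b had a log2 change of 2.59 ± 0.46, adjusted p = 0.43. Both had no overlap between the groups and were called by DESeq2 (adjusted p = 0.000548 for Il33 and 0.000239 for C4b). Cd74, the invariant chain of class II molecules, stood at 8.97, 19.2, 2.93, 72.6 and 32.5 CPM in old WT, against 3.47, 0.859, 1.05 and 1.42 CPM in young WT, overlapping in 1 old animal. Cd74 had a log2 change of 4.30 ± 0.85, adjusted p = 0.43, and was called by DESeq2 (adjusted p = 6.23e-05). An unnamed cluster led by Cd74, Cd52, H2-Ab1 and Ptprc, genes of white blood cells, held 8 barcodes in old WT and 0 in young WT; its part in the Cd74 values was not tested. The class I list had 13 of 13 genes positive over the whole hippocampus, at a median of 0.94, and the reactive astrocyte list 16 of 16, at 0.82, beside -0.019 over the 12043 genes. Of the 10 astrocyte markers 9 were positive there, at a median of 0.58, and of the 10 microglia markers 9, at 0.54.

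**Figure D5:**
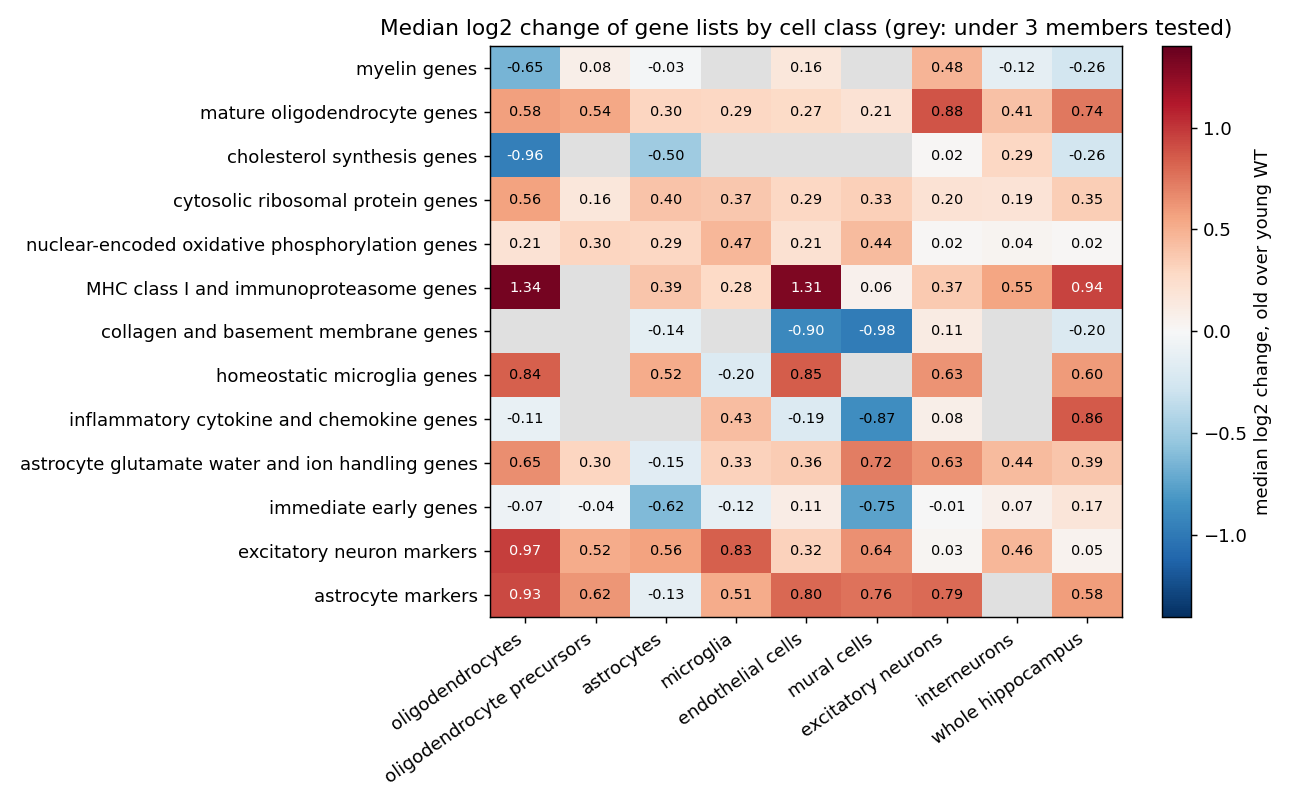
Median log2 change, old over young WT, of the tested genes of 13 lists (down the page) in each class (across); cells are grey where under 3 members were tested. Cholesterol and myelin genes are negative in oligodendrocytes, at -0.96 and -0.65, and class I genes positive in endothelial cells, at 1.31.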

How the data were processed

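Drop-seq libraries of the hippocampus of 5 old and 4 young WT mice were analysed; the rTg4510 animals entered a comparison of genotypes, and the P301L and rTta animals only an alternative fit. The authors deposited 1 table of whole-number counts for 13685 genes and 30500 barcodes of 22 animals. Reads were demultiplexed with bcl2fastq 2.18.0.12 and aligned with STAR (given as version 2.2) to mm10, per the submitters' processing notes; the counting tool, annotation, use of strand and filters are not given in the sources used here, nor whether counts are of distinct molecular identifiers. Genes counted in each of the 16 WT and rTg4510 animals (12884) were used, since the table joins 2 gene sets.

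Barcodes with 300 or more counts of all 22 animals were scaled to 10000, log-transformed and clustered (2000 variable genes, 40 components, 15 neighbours, Leiden resolution 1) with scanpy 1.11.5 (Python 3.11.15). A cluster took a name where at least 3 markers stood 2-fold above the other clusters after 20 CPM was added. Of the 11 unnamed clusters, 3 did not meet this, and 8 met it but were left unnamed, a choice made after their genes were seen, because markers of a second class or their leading genes went against the name. The clusters of endothelial cells, fibroblasts, ependymal cells and oligodendrocyte precursors also held at least 3 markers of a second class and kept their names. Doublets were not called, and an alternative left out 811 cells in which the markers of a class other than their own had more counts. Counts were summed per animal and class (20 cells or more) and tested with edgeR 4.0.16 (R 4.3.3; TMM, filterByExpr, robust quasi-likelihood F test, Benjamini-Hochberg over all genes of a fit, threshold 0.05); SE is the size of the log2 change over the root of F. DESeq2 1.42.0 was an alternative. Both were also run on simulated counts with known changes, whose outcome is not given here and is no evidence for the calls above. The simulation did not model an age difference in transcripts of other cells. Summed library depth was 780831 to 5739930 counts, and precision was lowest where a class held few cells. P-values set the difference between the age groups against the spread between animals. Shares were compared by an exact permutation test over animals.

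Genes were named by rule: the 4 largest rises and the 4 largest falls per class among called genes at 50 CPM or more, the called genes of each list by smallest p and, in lists without calls, the most abundant members. Gstm1, Cyp2d22, Ugt8a, Pmp22, Sepp1, Neat1, Sqle, Mbp and Mag, and the genes without a call in other classes and over the whole hippocampus that had no place in this rule, were chosen after their values were seen. The members and all lists were chosen with earlier results of these data known. Gene coordinates are those of the GENCODE annotation on GRCm38, and promoter windows those of RefSeq on GRCm38.p6. Some genes of the lists are counted in them but not reported here by name.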

Additional observations from a re-analysis of the deposited data

Results flagged for a closer look

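Of 88 groups of 4 or 5 animals checked, 7 held an animal far from the rest by Dixon's test, where chance gives about 1 in 20. Among shares of barcodes, the highest old WT animal stood at 1.25% for ependymal cells and at 5% for choroid plexus cells, and the highest young WT animal at 11.4% for choroid plexus cells. Among called genes in oligodendrocytes, the highest old WT animal stood apart for S100b, at 963 CPM, and for Rpl37, at 695 CPM, and the highest young WT animal for Ctps, at 149 CPM, and for Thbs3, at 87.2 CPM. For Ctps, S100b and Thbs3 the old and young groups did not overlap with that animal in or out.

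Sepw1 in microglia had an age change that differed between rTg4510 and WT by -2.45 ± 0.48 on the log2 scale (edgeR, adjusted p = 0.0484). It was the 1 gene so called in any class, and leaving out any single one of 9 animals removed all calls of the age by genotype term.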

How the results depend on the processing

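Named genes called in oligodendrocytes (33) had 675 alternative values: 593 kept direction and call, 82 kept direction and lost the call, and 0 changed direction. No paired analysis was possible because replicate numbers were given in accession order and pair no animals.

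The count of 127 calls in oligodendrocytes became 242 with no filter on low counts, 194 with a term for lower against higher label numbers within each age group and 42 in cells with at most 1 excitatory marker count; leaving out 1 animal gave 62 to 143. Summed over classes it became 263 and 199 under the first 2 of these, and 66 to 143 without 1 animal. DESeq2 called 26 genes over the whole hippocampus, 2 in excitatory neurons, 1 in astrocytes and 1 in microglia. No filter gave 1 call in interneurons, 6 in astrocytes and 14 in endothelial cells. The label number term gave 1 over the whole hippocampus, 1 in interneurons, 1 in astrocytes and 3 in endothelial cells. The fit of 22 animals gave 1 in astrocytes and 1 in oligodendrocyte precursors, the fit of 16 animals 1 in the precursors, and a minimum of 1000 counts 1 in endothelial cells. With the low-count cluster counted among them, an alternative added after seeing the data, astrocytes gave 6. Without 1 animal, astrocytes gave 0 to 2, microglia 0 to 4 (4 without old WT replicate 5 or young WT replicate 3), endothelial cells 0 to 1 and the age by genotype term 0 to 63. The causes were not tested.

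Shares that changed sign had no call: mural cells at 0.0222 percentage points (minimum of 500 counts), 0.602 (minimum of 1000) and 0.104 (named cells as denominator), astrocytes at 0.626 (minimum of 1000), 0.432 (denominator) and 13.3 (low-count cluster included), ependymal cells at 0.0549 (minimum of 1000) and 0.0159 (denominator). Without 1 animal they ranged from -2.79 to 0.869 for astrocytes, -0.628 to 0.0542 for mural cells, -0.269 to 1.28 for endothelial cells, -0.307 to 0.470 for fibroblasts, -0.275 to 0.176 for ependymal cells and -2.76 to 1.04 for choroid plexus cells.

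Classes entered with as few as 20 cells per animal, and their values are less precise than those of the larger classes.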
